A study of Mus musculus with 14 samples.

Results

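The potassium channel genes are described here: every array probe whose only gene symbol begins with Kcn, then 1 or 2 letters and a digit, which covers pore-forming subunits, their accessory subunits and named antisense transcripts. The rule took 73 probes of 65 genes from 21582 probes, and 68 of these probes, for 61 genes, had enough values to be tested, of 20876 tested in all. RNA from fetuses of C57Bl6 mice was measured on 14 two-colour arrays. For the alcohol-fed group (n = 7), mothers were exposed to ethanol, at about 180 to 200 mg/dl, over gestational days 15 to 18. For the pair-fed group (n = 7), mothers received maltose dextrin in its place, which the description and design text call maltose dextrose. Fetuses were delivered on gestational day 19, and each array set 1 sample, in Cy5, against a single pool of RNA, in Cy3, from 7 animals with free access to food and water. The labels call that channel a weight-matched control, and the protocol gives 4 days of exposure where the titles give 5. No source used here names the tissue, so no cell type can be checked against a label. Whether the 7 samples of a group were separate litters is not said either, so the p-values reflect sample-to-sample spread that could be technical.

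Potassium channels let potassium leave or enter cells and set how easily a cell fires, contracts or secretes. Voltage-gated channels (Kcna, Kcnc, Kcnd, Kcnh, Kcnq and others) open on depolarisation and end the action potential, and accessory subunits (Kcnab, Kcne, Kcnip) change their gating and surface number. Inward rectifiers (Kcnj) hold the resting potential, some under the control of G proteins or of ATP, two-pore channels (Kcnk) carry the background leak, and calcium-activated channels (Kcnma, Kcnn, with Kcnmb subunits) link calcium to membrane potential. By these classes 26 probes were voltage-gated, 12 accessory, 14 inward rectifier, 9 two-pore and 10 calcium-activated, and the other 2 were antisense transcripts, kept out of the classes. All 73 probes matched a RefSeq gene of the same symbol by gene number, on 18 chromosomes.

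Upstream sequences are printed for 1 pore-forming gene of each class that was called below the reference in both groups (by the rule given with the values): the transient-current channel Kcnd3, the ATP-sensitive inward rectifier Kcnj8 and the pH-sensitive leak channel Kcnk5. These are examples, as other pore genes were also called lower in both groups, among them Kcnc2, Kcnh5, Kcnh7 and Kcnj3. No calcium-activated pore gene was called lower. Each is the 250 bases before the annotated start in RefSeq, build GRCm38.p6, read 5′ to 3′ on the gene's strand, and capitals mark a GC box (GGGCGG, searched on both strands). Kcnd3 spans chr3:105451640-105451889 on the plus strand, Kcnj8 chr6:142571615-142571864 on the minus strand and Kcnk5 chr14:20181783-20182032 on the minus strand, all outside the annotated gene body.
Kcnd3: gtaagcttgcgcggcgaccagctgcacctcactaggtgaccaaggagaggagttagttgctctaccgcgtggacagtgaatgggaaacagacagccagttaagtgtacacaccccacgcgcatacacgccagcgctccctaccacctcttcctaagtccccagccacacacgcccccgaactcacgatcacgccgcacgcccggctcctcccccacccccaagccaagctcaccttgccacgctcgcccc
Kcnj8: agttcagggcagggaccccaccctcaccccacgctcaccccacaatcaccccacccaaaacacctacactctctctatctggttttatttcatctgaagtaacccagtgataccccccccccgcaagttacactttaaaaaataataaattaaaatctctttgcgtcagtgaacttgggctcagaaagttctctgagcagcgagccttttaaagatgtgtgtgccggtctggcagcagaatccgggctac
Kcnk5: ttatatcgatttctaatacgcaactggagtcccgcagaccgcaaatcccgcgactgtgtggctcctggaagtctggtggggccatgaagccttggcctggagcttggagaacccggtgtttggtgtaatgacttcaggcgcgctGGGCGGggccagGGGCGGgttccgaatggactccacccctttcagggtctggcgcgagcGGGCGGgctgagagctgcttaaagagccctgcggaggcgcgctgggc
The Kcnk5 window held 3 GC boxes and 19 CpG pairs, the Kcnd3 window 0 and 18, and the Kcnj8 window 0 and 6. None of them held TATAAA on either strand. A GC box occurred in 32.7% of the 32851 windows of all genes and in 41.6% of the 77 windows found for 53 member genes, and TATAAA occurred in 12.4% and 2.6%. The letters describe these windows only.

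Values below are log2 ratios of sample over pool after each array was centred on its median, so 0 equals the array's middle probe. That direction is likely from the dye labels but is not stated with the values, and scale and centring were likewise read from the values. If it ran the other way, every sign against the reference and between the groups would turn. A probe is called when its limma adjusted p (Benjamini-Hochberg over all 20876 tested probes) is under 0.05. The pool counts as 1 control sample, so its own spread is left out, and no dye-swapped array was used. Both groups were set against this same pool, so their ratios share it and are given side by side.

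Against the reference, 21 of 68 member probes were called in the alcohol-fed group (30.9%, beside 23.5% of all probes), 3 of them higher and 18 lower. Lower calls made up 26.5% of the members and 15.5% of all probes, and higher calls 4.41% and 8.02%. In the pair-fed group 18 members were called (26.5%, beside 21.3%), 5 higher and 13 lower. Here lower calls were 19.1% of the members beside 13.5% of all probes, and higher calls 7.35% beside 7.86%. The median log2 ratio of the members was -0.29 in the alcohol-fed group and -0.37 in the pair-fed group, where the median of all probes was 0.007 and -0.03. Of the 48 members measured on every array, 12 (25.0%) were called in the alcohol-fed group, beside 22.7% of all probes so restricted, and 11 (22.9%) in the pair-fed group, beside 23.7%. Lower calls in this subset were 9 (18.8%, beside 11.3%) and 6 (12.5%, beside 11.6%), and higher calls 3 (6.25%, beside 11.4%) and 5 (10.4%, beside 12.1%). The share of lower calls was thus smaller in this subset, for the members and for all probes alike. The members' share stayed above that of all probes in the alcohol-fed group and was close to it in the pair-fed group. Quantile normalization gave 7 higher and 17 lower members in the alcohol-fed group and 5 and 12 in the pair-fed group, while moving the median of all probes from 0.007 to 0.14 and from -0.03 to 0.08. Values as deposited gave 4 higher and 16 lower, then 6 and 12.

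**Figure D1:**
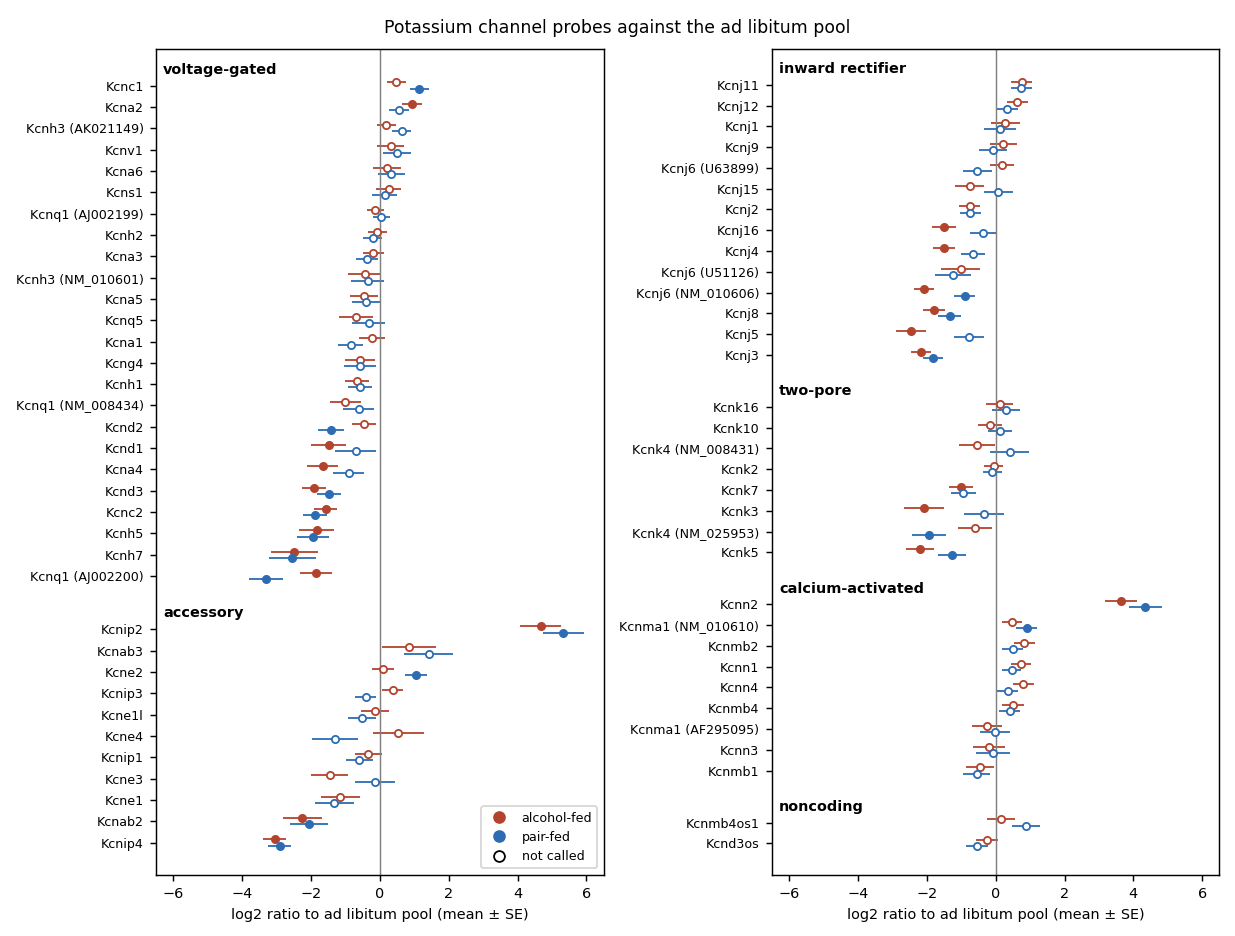
Mean log2 ratio to the reference pool (x axis, bars: limma SE) of each tested member probe, by class and group, with filled points for called probes and open points for the rest. A reader should see that the inward rectifier and two-pore points called by limma all lie below 0, while 2 points, Kcnip2 (4.67 and 5.33) and Kcnn2 (3.64 and 4.34), stand far above the others in both groups.

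Of 24 tested voltage-gated pore probes, 8 were called in the alcohol-fed group (1 higher, 7 lower) and 7 in the pair-fed group (1 higher, 6 lower), with class medians of -0.46 and -0.49. Lower calls were 29.2% of the class beside 15.5% of all probes, and 25.0% beside 13.5%. Among the 17 probes measured on every array this was not so: 2 were lower in the alcohol-fed group (11.8%, beside 11.3%) and 1 in the pair-fed group (5.88%, beside 11.6%). Kcnd3, which carries fast transient outward current in heart and brain, ranged over the alcohol-fed arrays from -3.34 to -1.10 (median -1.69) and over the pair-fed arrays from -2.41 to 0.04 (median -2.15). Only 1 pair-fed array was at or above the pool, and the groups overlapped. Its mean log2 ratio was -1.92 ± 0.35 (limma SE, n = 7; adjusted p = 0.000855), 3.78-fold lower, in the alcohol-fed group. In the pair-fed group it was -1.48 ± 0.35 (limma adjusted p = 0.00639).

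The relatives of Kcnd3 differed between the groups in their calls but not by a called difference. Kcnd2 was called in the pair-fed group, at -1.41 ± 0.38 (limma adjusted p = 0.0148), and had -0.47 in the alcohol-fed group. Kcnd1 was called in the alcohol-fed group, at -1.49 ± 0.50 (limma adjusted p = 0.043), and had -0.71 in the pair-fed group. The Kcnd1 mean depended on alcohol-fed replicate 6, whose value was -5.28: without it the mean was -0.86 (limma adjusted p = 0.1). Leaving out replicate 1, 3, 4 or 7 also ended the call, but with means from -1.64 to -1.34 (limma adjusted p 0.0519 to 0.105). A second Kcnd1 probe had too few values to test.

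Kcnc2, a channel of fast-spiking neurons, ranged from -2.44 to -0.04 in the alcohol-fed arrays (median -1.68) and from -2.84 to -0.85 in the 6 pair-fed arrays with a value (median -1.91). No array of either group was above 0 and the groups overlapped. Its means were -1.58 ± 0.32 and -1.88 ± 0.35 (limma adjusted p = 0.00252 and 0.00125). Its close relative Kcnc1 went the other way in the pair-fed group, where all 7 arrays lay between 0.49 and 1.74 and the mean was 1.14 ± 0.27 (limma adjusted p = 0.0074). In the alcohol-fed group Kcnc1 averaged 0.47 and was not called.

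Among the ether-à-go-go relatives, Kcnh7 and Kcnh5 were low in both groups. Kcnh7, of the erg type, averaged -2.49 ± 0.68 in the alcohol-fed and -2.55 ± 0.68 in the pair-fed group (limma adjusted p = 0.0167 and 0.0156). Its pair-fed arrays spread from -6.56 to 1.16, and 6 arrays of each group had a value. The first call ended without alcohol-fed replicate 6 (limma adjusted p = 0.0549) and the second without pair-fed replicate 1 (0.0505). Kcnh5, of the eag type, averaged -1.84 ± 0.50 and -1.95 ± 0.47 (limma adjusted p = 0.0154 and 0.00794), and the alcohol-fed call ended without replicate 2 (0.0525). Kcnh2, the erg channel that repolarises the heart, was near the reference at -0.08 and -0.21 and was not called in either group.

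Among the Shaker-type genes, Kcna4, a rapidly inactivating channel, averaged -1.66 ± 0.45 in the alcohol-fed group (limma adjusted p = 0.0142) and -0.90 in the pair-fed group, where it was not called. Its alcohol-fed arrays ran from -5.50 to -0.53 (median -1.20), and without replicate 1, the lowest, the mean was -1.02 (limma adjusted p = 0.0207). Kcna2, an axonal channel, was the only voltage-gated probe called higher in the alcohol-fed group, at 0.93 ± 0.30 (limma adjusted p = 0.0323). That call ended without alcohol-fed replicate 1, 2, 3, 4 or 6 (limma adjusted p 0.0561 to 0.0977), and the pair-fed mean was 0.56. Kcna1 had -0.23 and -0.85, Kcna3 -0.19 and -0.37, Kcna5 -0.46 and -0.41 and Kcna6 0.21 and 0.33, none of them called. The silent subunits Kcns1, Kcnv1 and Kcng4, which act only in mixed channels, had means between -0.58 and 0.50 and were not called.

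Accessory subunits included large ratios in both directions. Kcnip2 and Kcnip4 both belong to the calcium-binding KChIP family that assembles with Kcnd channels, and they stood on opposite sides of the reference. Kcnip2 ranged from 2.10 to 7.00 in the alcohol-fed arrays (median 5.33) and from 1.92 to 7.58 in the pair-fed arrays (median 5.45). All 14 arrays were above 0 and the groups overlapped. The lowest values were those of alcohol-fed replicates 2 and 3 (2.66 and 2.10) and pair-fed replicate 2 (1.92), with the next array at 4.0. These are the arrays named below for their high deposited medians. The mean was 4.67 ± 0.60 in the alcohol-fed group, 25.5-fold higher, and 5.33 ± 0.60 in the pair-fed group, 40.3-fold higher (limma adjusted p = 2.2e-05 and 4.69e-06).

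Kcnip4 ranged from -4.13 to -1.91 in the alcohol-fed arrays (median -2.71) and from -4.38 to -1.82 in the pair-fed arrays (median -2.81). All 14 arrays were below 0, and the ranges of the groups almost coincided. Its means of -3.05 ± 0.34 and -2.91 ± 0.34 were 8.3-fold and 7.53-fold lower than the pool (limma adjusted p = 3.55e-06 and 6.86e-06). The other family members on the array, Kcnip1 (-0.33 and -0.60) and Kcnip3 (0.37 and -0.41), were not called. Their probes measure different genes, so the levels of the family cannot be ranked from ratios.

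Kcnab2, a beta subunit of Shaker-type channels, was also lower in both groups, at -2.25 ± 0.56 and -2.07 ± 0.56 (limma adjusted p = 0.00823 and 0.0142). The pair-fed arrays lay between -2.57 and -1.51, whereas alcohol-fed replicate 6 was at -6.89, and without it the alcohol-fed mean was -1.48 (limma adjusted p = 0.00973). Kcne2, which pairs with Kcnq1 in the stomach, was called higher in the pair-fed group at 1.04 ± 0.32 (limma adjusted p = 0.0299), a call that ended without pair-fed replicate 2, 4, 5 or 7 (0.0516 to 0.0822). Its alcohol-fed mean was 0.09. Kcne1, the partner of Kcnq1 in the slow cardiac current, had -1.15 and -1.33 and was not called. Without pair-fed replicate 7, at -6.44, its pair-fed mean was -0.48, and its alcohol-fed mean, unchanged, was called (limma adjusted p = 0.0101), since both groups share 1 variance. Array weights also called it in the alcohol-fed group (0.044). Kcne3 had -1.46 and -0.14, and was called in the alcohol-fed group with scale normalization (limma adjusted p = 0.045) and with array weights (0.0152). In all, 3 of 11 tested accessory probes were called in the alcohol-fed group (27.3%, beside 23.5% of all probes), 1 higher and 2 lower. In the pair-fed group 4 were called (36.4%, beside 21.3%), 2 higher and 2 lower. Lower calls were 18.2% of the class in each group, beside 15.5% and 13.5% of all probes. Higher calls were 9.09% and 18.2%, beside 8.02% and 7.86%, all from few probes.

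**Figure D2:**
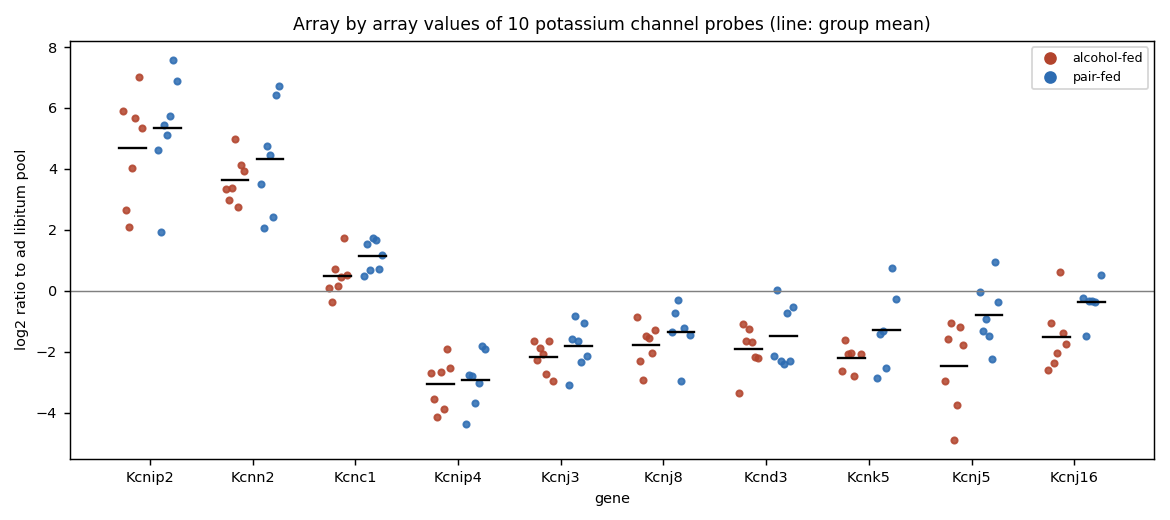
Log2 ratio to the pool on every array (points, alcohol-fed and pair-fed in separate colours) for 10 member probes, with a line at each group's mean. Kcnip2 and Kcnn2 lie above 0 on all 14 arrays and Kcnip4 and Kcnj3 below 0 on all 14, and the groups overlap for each gene shown.

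The inward rectifiers were called in 1 direction only. Of 14 tested probes, 6 (42.9%) were called lower and 0 higher in the alcohol-fed group, and 3 (21.4%) lower and 0 higher in the pair-fed group. Of all probes, 15.5% and 13.5% were called lower and 23.5% and 21.3% in either direction, so the pair-fed share called was at the background. The class medians were -0.88 and -0.59. Kcnj3 and Kcnj5 encode the subunits of the G-protein-gated channel of the atrium, and Kcnj6 and Kcnj9 form its neuronal counterparts. Kcnj3 ranged from -2.96 to -1.63 in the alcohol-fed arrays (median -2.08) and from -3.08 to -0.83 in the pair-fed arrays (median -1.66). All 14 arrays were below 0, and the alcohol-fed range lay inside the pair-fed range. Its means were -2.17 ± 0.29 and -1.81 ± 0.29, or 4.51-fold and 3.51-fold lower (limma adjusted p = 3.47e-05 and 0.000263).

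Kcnj5 ranged from -4.88 to -1.05 in the alcohol-fed arrays (median -1.79) and from -2.25 to 0.94 in the pair-fed arrays (median -0.91). Every alcohol-fed array was below 0, as were 6 of 7 pair-fed arrays, and the groups overlapped. The mean was -2.45 ± 0.44 in the alcohol-fed group (limma adjusted p = 0.000809) and -0.78 ± 0.44 in the pair-fed group (0.215). Kcnj9 had 0.22 and -0.08 and was not called.

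Kcnj6 was read by 3 probes that differed. The probe NM_010606 ranged from -3.13 to -1.23 in the alcohol-fed arrays (median -1.99) and from -1.71 to 0.03 in the pair-fed arrays (median -0.55), with the groups overlapping. Its means were -2.09 ± 0.30 and -0.90 ± 0.30 (limma adjusted p = 7.32e-05 and 0.0375), and the pair-fed call ended without pair-fed replicate 1, 5 or 6 (0.0853 to 0.108). Values as deposited and quantile normalization also ended it. The probe U51126 had -1.01 and -1.25 and the probe U63899 0.18 and -0.53, none of them called.

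Kcnj8 forms the pore of the ATP-sensitive channel of vessels, and Kcnj11 that of beta cells and heart. Kcnj8 ranged from -2.92 to -0.87 in the alcohol-fed arrays (median -1.56) and from -2.96 to -0.31 in 6 pair-fed arrays (median -1.30), with no array above 0. Its means were -1.78 ± 0.32 and -1.34 ± 0.35 (limma adjusted p = 0.000948 and 0.0122), and the pair-fed call ended without replicate 4 (0.0509). Kcnj11 had 0.75 ± 0.30 and 0.74 ± 0.30, on the other side of the reference, and was not called (limma adjusted p = 0.0745 and 0.0839). With quantile normalization Kcnj11 was called higher in the alcohol-fed group (limma adjusted p = 0.0325).

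Of the classical strong rectifiers, Kcnj4 was called in the alcohol-fed group at -1.50 ± 0.32 (limma adjusted p = 0.00355) and had -0.66 in the pair-fed group. Kcnj2, the main resting channel of muscle, had -0.76 and -0.74 and Kcnj12 0.63 and 0.34, without a call. Kcnj2 was called in the alcohol-fed group with scale normalization (limma adjusted p = 0.0469) and with array weights (0.0147). Kcnj16, a subunit of kidney and glial channels, ranged from -2.61 to 0.62 in the alcohol-fed arrays (median -1.75) and from -1.48 to 0.52 in 6 pair-fed arrays (median -0.34). Its means were -1.51 ± 0.35 (limma adjusted p = 0.00579) and -0.38 ± 0.38 (0.496). Kcnj1, the renal outer medullary channel, had 0.28 and 0.13, and Kcnj15 -0.75 and 0.07, neither of them called.

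Of 8 tested two-pore probes, 3 were called lower in the alcohol-fed group and 2 in the pair-fed group, and 0 higher in either. Lower calls were thus 37.5% beside 15.5% of all probes, and 25.0% beside 13.5%, from very few probes. The class medians were -0.58 and -0.22. Kcnk5, a channel closed by acid outside the cell, ranged from -2.78 to -1.63 in 6 alcohol-fed arrays (median -2.07) and from -2.85 to 0.76 in 6 pair-fed arrays (median -1.37). All the alcohol-fed values and 5 of the 6 pair-fed values were below 0. Its means were -2.20 ± 0.40 and -1.27 ± 0.40 (limma adjusted p = 0.00122 and 0.0347), and the pair-fed call ended without pair-fed replicate 1, 2, 3 or 4 (0.0615 to 0.118) or with placeholder values kept (0.0519).

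Kcnk3, another acid-sensitive leak channel, ranged from -6.27 to -0.46 in the alcohol-fed arrays (median -1.56) and from -2.54 to 2.46 in the pair-fed arrays (median -0.46). Its alcohol-fed mean of -2.09 ± 0.57 was called (limma adjusted p = 0.0151), and without replicate 1, the lowest array, it was -1.39 (0.0411). The pair-fed mean was -0.34. Kcnk7, a member with no known current of its own, was called in the alcohol-fed group at -1.01 ± 0.35 (limma adjusted p = 0.0454). That call ended when alcohol-fed replicate 1, 2, 3, 4 or 6 or pair-fed replicate 1, 2, 4 or 5 was left out (0.0514 to 0.14), and with values as deposited, quantile or scale normalization. The pair-fed mean of Kcnk7 was -0.94.

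The stretch-sensitive channels were mixed. Kcnk4 was called lower in the pair-fed group by the probe NM_025953, at -1.94 ± 0.49 (limma adjusted p = 0.0107), while the same probe had -0.61 in the alcohol-fed group. The other Kcnk4 probe, NM_008431, had 0.41 in the pair-fed and -0.55 in the alcohol-fed group, neither called. Kcnk2 had -0.05 and -0.10 and Kcnk10 -0.17 and 0.14, also without a call. Kcnk16, a pancreatic channel, had 0.12 and 0.30.

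Few calcium-activated probes were called. Of 9 tested, 1 was called higher in the alcohol-fed group (11.1%, beside 23.5% of all probes called) and 2 in the pair-fed group (22.2%, beside 21.3%), and 0 lower in either. The class medians were 0.50 and 0.41, with 3 of the 9 means below 0 in each group. Kcnn2, a small-conductance channel that follows bursts of firing in neurons and is active in the atrium, ranged from 2.74 to 5.00 in the alcohol-fed arrays (median 3.37) and from 2.08 to 6.71 in the pair-fed arrays (median 4.47). All 14 arrays were above 0, and the alcohol-fed range lay inside that of the pair-fed arrays. Its means were 3.64 ± 0.48 and 4.34 ± 0.48, or 12.5-fold and 20.3-fold higher (limma adjusted p = 3e-05 and 3.93e-06).

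The relatives of Kcnn2 were much closer to the pool. Kcnn1 had 0.74 and 0.46, Kcnn3 -0.19 and -0.08, and Kcnn4, the intermediate-conductance channel of blood and epithelial cells, 0.80 and 0.35, with no call. The large-conductance channel Kcnma1 was called in the pair-fed group by the probe NM_010610, at 0.90 ± 0.30 (limma adjusted p = 0.0382), and had 0.48 in the alcohol-fed group. That call ended without pair-fed replicate 1, 2, 5 or 7 (0.0654 to 0.11), and the other Kcnma1 probe, AF295095, had -0.25 and -0.02. The beta subunits of this channel had means between -0.56 (Kcnmb1, pair-fed) and 0.83 (Kcnmb2, alcohol-fed), none of them called. The alcohol-fed count of the class depended on the scaling: quantile normalization called 4 higher, adding Kcnmb2, Kcnn1 and Kcnn4.

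**Figure D3:**
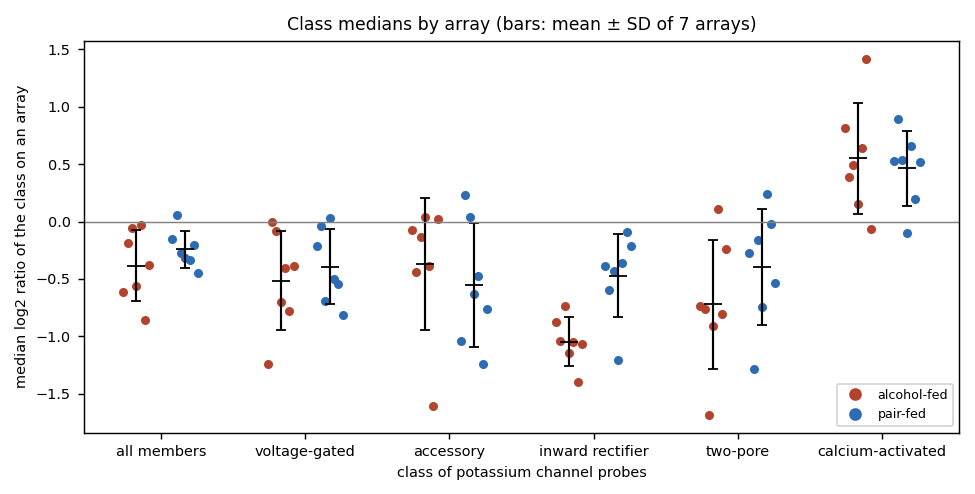
Median log2 ratio over the tested probes of each class on each array (points, by group), with the group mean and SD (n = 7). The inward rectifier medians lie below 0 on all 14 arrays, and the calcium-activated medians lie above 0 on 6 of 7 arrays in each group.

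Class medians were also taken array by array. The median over the inward rectifier probes of an array averaged -1.04 ± 0.21 in the alcohol-fed group (SD, n = 7; -1.40 to -0.73) and -0.47 ± 0.36 in the pair-fed group (-1.21 to -0.09). The calcium-activated medians averaged 0.55 ± 0.48 and 0.46 ± 0.32. For two-pore probes the averages were -0.72 ± 0.56 and -0.40 ± 0.51, for voltage-gated probes -0.51 ± 0.43 and -0.39 ± 0.33, and for accessory probes -0.37 ± 0.58 and -0.55 ± 0.54. Except for the alcohol-fed inward rectifiers, the spread over arrays was a large part of each average. Probes of a class share arrays and some share a gene, so no test was made between classes. Counting just the probes measured on every array, those called in the alcohol-fed group were 3 of 17 voltage-gated (17.6%), 3 of 8 accessory, 3 of 8 inward rectifier, 2 of 6 two-pore and 1 of 7 calcium-activated (14.3%), beside 22.7% of all probes so restricted. In the pair-fed group they were 2 of 17, 4 of 8, 2 of 8, 1 of 6 and 2 of 7 in the same order, beside 23.7%.

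Kcnq1, the channel of the slow cardiac current and of the inner ear and stomach, showed how much 1 gene can vary by probe. The probe AJ002200 ranged from -2.81 to -0.45 in the alcohol-fed arrays (median -2.06) and from -5.87 to -1.41 in 6 pair-fed arrays (median -3.07), with no array above 0. Its means were -1.87 ± 0.46 and -3.32 ± 0.50 (limma adjusted p = 0.00866 and 0.000179). The probe NM_008434 had -1.01 and -0.61 and the probe AJ002199 -0.14 and 0.04, none of them called. The 5 genes with several tested probes were Kcnq1, Kcnj6, Kcnk4, Kcnma1 and Kcnh3; in the first 4 of them 1 probe was called and the rest were not. Kcnh3 had no call, at 0.19 and 0.64 by 1 probe and -0.45 and -0.36 by the other. The probe sequences were not used here, so which transcript each probe reads is not known. With each gene's probes averaged, 3 genes were called higher and 17 lower of 61 in the alcohol-fed group, and 4 and 12 in the pair-fed group. The share of all averaged genes called is not given here, so these counts have no background beside them.

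**Figure D4:**
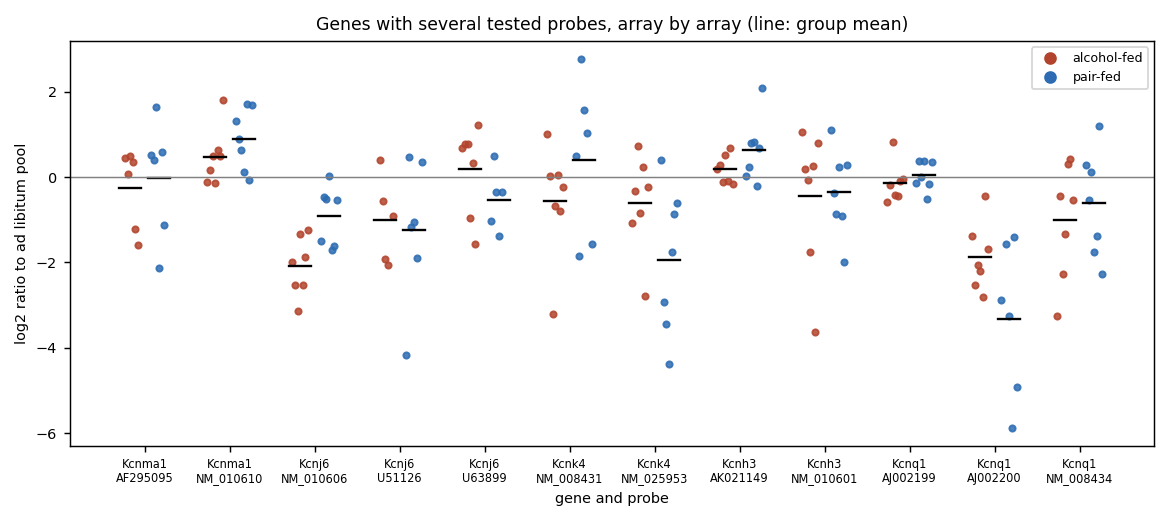
Log2 ratio to the pool on every array (points, by group) for each tested probe of the 5 genes with several tested probes, with a line at each group's mean. The means of the Kcnq1 probes run from -3.32 to 0.04 and those of the Kcnj6 probes from -2.09 to 0.18.

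Some members lie beside each other in the genome. In RefSeq order 8 pairs of members lie next to each other, among them Kcnj5 and Kcnj1 on chromosome 9, Kcnj16 and Kcnj2 on chromosome 11, Kcnj6 and Kcnj15 on chromosome 16 and Kcnk5 and Kcnk16 on chromosome 14. In these 4 pairs the first gene was called lower in the alcohol-fed group, by at least 1 probe, and the second was not called. Of the other pairs, Kcna2 was called higher there beside Kcna3, which was not called, and Kcnip1 and Kcnmb1 were both not called. The Kcna cluster of Kcna5, Kcna1 and Kcna6 on chromosome 6 held no call. The antisense transcripts Kcnd3os (-0.24 and -0.53) and Kcnmb4os1 (0.16 and 0.87) were not called either. No source used here gives the strand the probes read, so a gene and its antisense partner may not be separable.

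Between the alcohol-fed and pair-fed groups, which asks about ethanol apart from the diet, limma called 0 of 68 members, as it called 0 of all 20876 probes (0.0%). The adjusted p of every member was above 0.999. At an unadjusted p under 0.05 there were 5 members (7.35%), beside 881 of all probes (4.22%). There was no member whose 2 groups did not overlap, which held for 24 probes (0.115%) of all tested. The 5 members were 3 inward rectifiers, 1 two-pore channel and 1 voltage-gated channel, and in 4 of them the alcohol-fed mean was the lower one.

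The differences, alcohol-fed minus pair-fed, and their 95% intervals were as follows. Kcnj6 by the probe NM_010606 differed by -1.19 ± 0.42 (-2.07 to -0.31; limma unadjusted p = 0.0111), with its other probes at 0.24 and 0.71. Kcnj5 differed by -1.68 ± 0.63 (-2.99 to -0.36; limma unadjusted p = 0.0154). Kcnj16 differed by -1.14 ± 0.51 (-2.22 to -0.05; limma unadjusted p = 0.0406). Each of these is an inward rectifier, and none passed the adjustment.

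Kcnk3 had the most negative difference, -1.74 ± 0.81 (-3.45 to -0.04; limma unadjusted p = 0.0454), and was -1.05 without alcohol-fed replicate 1, the low array named above. Kcnq1 by the probe AJ002200 was the 1 with a positive difference, 1.45 ± 0.68 (0.02 to 2.88; limma unadjusted p = 0.0471), beside -0.40 and -0.18 by its other probes. Without pair-fed replicate 5 it was 0.94. The largest positive difference, 1.84 for Kcne4 (-0.30 to 3.99), rested on 4 and 5 arrays and had an unadjusted limma p of 0.0863. Without pair-fed replicate 4, at -4.87, it was 0.95. Kcnip2 differed by -0.66 (-2.43 to 1.11) and Kcnn2 by -0.70 (-2.12 to 0.72), and Kcnip4 by -0.14 (-1.14 to 0.86).

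**Figure D5:**
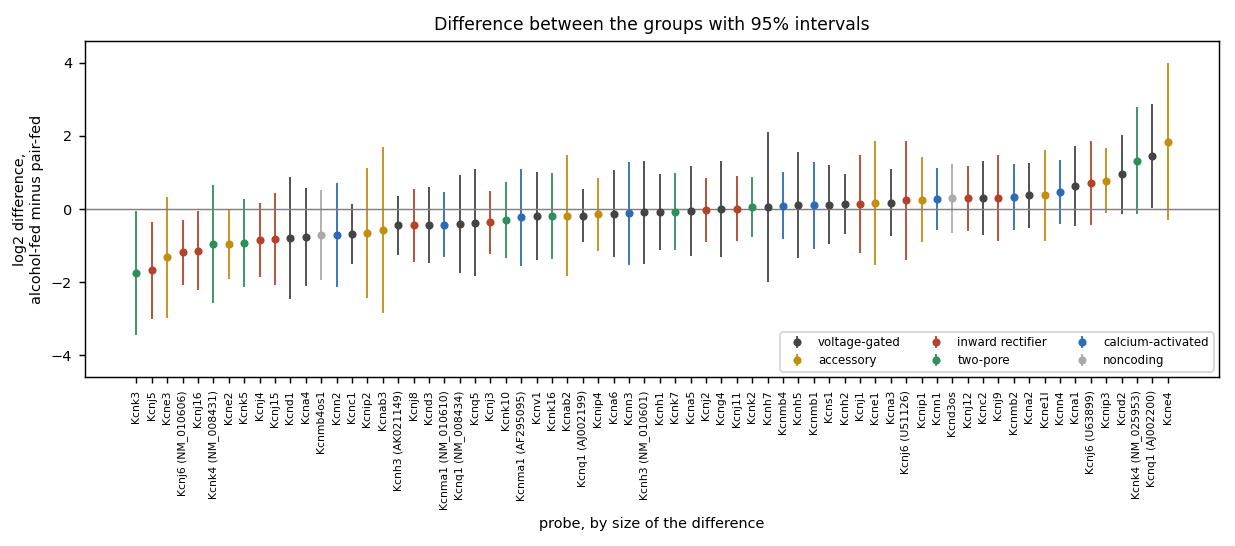
Alcohol-fed minus pair-fed log2 difference with its 95% interval for the 68 tested member probes, ordered by difference. The points run from -1.74 to 1.84, and 5 intervals leave out 0 without any adjusted call.

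These intervals were wide. Their median half-width was 1.17 on the log2 scale, and 5 of 68 members (7.35%) had an interval that excluded a 2-fold difference in both directions, while 50 excluded a 4-fold one. For most potassium channels a 2-fold difference between the groups could therefore not be excluded at this number of arrays. The 5 whose intervals excluded a 2-fold difference were Kcnk2, at 0.05 (-0.77 to 0.87), Kcnh2, at 0.14 (-0.69 to 0.96), Kcnj11, at 0.01 (-0.88 to 0.90), Kcnj2, at -0.02 (-0.90 to 0.86), and Kcnq1 by the probe AJ002199, at -0.18 (-0.90 to 0.54). They were not the 5 narrowest intervals. Kcnc1, for example, had a half-width of 0.82, but its difference of -0.67 lay further from the middle (-1.49 to 0.14).

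Partners of these channels were called about as often as all probes, of which 23.5% and 21.3% were called. Of 16 tested probes for ATP-sensitive and accessory partners, 1 was higher and 2 lower in the alcohol-fed group (18.8% called), and 2 and 2 in the pair-fed group (25.0%). Dpp6, which assembles with Kcnd channels beside the Kcnip proteins, had -2.81 and -3.02 (limma adjusted p = 0.00139 and 0.000798), on the side of Kcnip4 and Kcnd3. Kcnip2, at 4.67 and 5.33, was on the other side, and Kcnip1 and Kcnip3 were not called. Abcc8, the sulfonylurea receptor that pairs with Kcnj11, had 1.16 and 1.08 (limma adjusted p = 0.0125 and 0.0189). The scaffold Dlg1 had -1.99 and -1.76 (limma adjusted p = 0.00218 and 0.00565). Of 18 probes for potassium pumps and cotransporters, 2 were higher and 1 lower (16.7%), then 2 and 2 (22.2%). The neuronal cotransporter Slc12a5 had 1.07 and 1.06 (limma adjusted p = 0.0194 and 0.0217). On the lower side, 1 probe of Atp1b2 had -1.92 and -3.28 (limma adjusted p = 0.0135 and 0.000237), and its other probe, at 0.10 and -0.98, was not called.

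Other channel families were also called in both directions. Of 8 probes for cyclic-nucleotide-gated channels, 1 was higher and 3 lower in each group, or 4 of 8 called beside 23.5% and 21.3% of all probes. The pacemaker channel Hcn4 had -2.31 and -2.22 (limma adjusted p = 0.000544 and 0.00158). The higher call was 1 probe of Hcn3, at 1.90 and 1.78 (limma adjusted p = 0.00514 and 0.0084), whose other probe had 0.31 and -0.09 and was not called. Of 28 probes for voltage-gated sodium and calcium channels, 1 was higher and 6 lower in the alcohol-fed group (25.0%, near the background) and 2 and 7 in the pair-fed group (32.1%). There Cacna2d1, a calcium channel subunit, had -4.61 and -5.20 (limma adjusted p = 6.88e-06 and 1.7e-06).

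For markers of cell types that use these channels, the background is again 15.5% and 13.5% of all probes called lower and 8.02% and 7.86% called higher. In the alcohol-fed group 5 of 6 kidney tubule marker probes were lower and 1 higher, and in the pair-fed group 5 were lower, with medians of -1.91 and -1.60. Smooth muscle markers were lower for 3 of 6 in both groups and higher for 1 of 6 in the pair-fed group (medians -0.71 and -0.91). Cnn1 had -3.67 and -3.57 and Tagln -2.73 and -2.82, while Des, the higher one, had 0.65 and 1.09. Heart muscle markers were lower for 2 of 9 and 4 of 9, or 22.2% and 44.4% (medians -0.51 and -1.05), and astroglial markers lower for 6 of 9 in the alcohol-fed group and 0 of 9 in the pair-fed group (medians -1.04 and -0.65). Neuronal markers had 0 of 8 called in the alcohol-fed group and 1 higher in the pair-fed group (medians 0.49 and 0.26). Skeletal muscle markers were called in both directions (2 higher and 4 lower of 13, then 2 and 3), as were islet markers in the alcohol-fed group (1 and 2 of 5, then 0 and 2). The part of these cell types in the lower Kcnj, Kcnk and Kcnd ratios was not tested, and in whole-tissue RNA fewer cells of a type and less RNA per cell cannot be told apart.

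The whole table limits these values in known ways. Between 555 and 3155 values per array were placeholders set to missing, and deposited array medians ran from -0.43 to 0.63. Alcohol-fed replicates 2 and 3 (0.545 and 0.573) and pair-fed replicate 2 (0.634) had the highest of these medians. The deviations of alcohol-fed and pair-fed replicate 2 correlated at 0.184, more than those of other same-numbered arrays. Whether these arrays were independent was not tested. Without alcohol-fed replicates 2 and 3 and pair-fed replicate 2, 2 members were called higher and 15 lower in the alcohol-fed group and 3 and 11 in the pair-fed group, of 66. Values for Kcnab1, Kcnk1, Kcna7, Kcnu1 and the second Kcnd1 probe were too few to test; Kcnab1, for example, had 3 alcohol-fed values, from -3.48 to -0.60, and 2 pair-fed values, -0.90 and -0.46.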

How the data were processed

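The members and lists were chosen with earlier results of these data known. Total RNA was extracted, reverse-transcribed and labelled with Cy3 or Cy5 per the labels' protocols. The authors deposited 1 log2 ratio per probe and array; that it is log2 was read from the values. How the authors scanned the arrays, corrected background and scaled the ratios is not given, and the labels name no batch. No signal was used, so brightness over background is unknown, and the number of arrays limits the precision.

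Exact zeros and values at the table maximum were set to missing and each array was centred on its median. Probes with values on 4 or more arrays per group were fitted with limma 3.58.1 (R 4.3.3; lmFit and eBayes, 14 arrays, two-sided, prior degrees of freedom 5.88). Benjamini-Hochberg adjustment ran over 20876 probes. Standard errors pool both groups. Members kept all their probes, named by the platform annotation, in which 16635 probes had 1 symbol, 113 several and 4834 none. Arrays shared at most 0.287% identical values, so each counted as 1 sample.

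Named members were, per class, the called probes with the largest ratios in each direction, the 10 with the smallest p between groups, genes with several tested probes, and well-known members. Other members are given by value for completeness, as the text names whole families. In simulated data with 200 of 20876 probes changed, limma recovered 0% of 2-fold changes. Of 4-fold changes it recovered 77.5% (alcohol-fed ratios), 65.5% (pair-fed ratios) and 28.0% (the difference), and of 8-fold changes 91.0%, 91.0% and 74.5%. In the real data 23.5% and 21.3% of all probes were called against the reference, a far larger share than was changed here. The adjusted cut-off loosens as more probes change, so the rates for ratios to the reference need not hold in the real data. Kcna2, for example, was called in the alcohol-fed group at 0.93, below a 2-fold change. Alternatives were other scalings, placeholders kept, other completeness rules, robust and weighted fits, a replicate block, arrays left out and gene averages.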

Additional observations from a re-analysis of the deposited data

Results flagged for a closer look

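Within a group, 12 of 148 sets of arrays (member probes and class medians) had 1 array far from the others by Dixon's test at its 95% level, where chance alone gives about 7.4. Among probes called in either group, Kcnk3 had alcohol-fed replicate 1 at -6.27, with the next array at -2.32. Kcna4 had the same replicate at -5.50, with the next at -1.31. Kcna4 also had pair-fed replicate 3 at 0.46, above the next at -0.89, but was not called in the pair-fed group. Kcne2, called in the pair-fed group alone, had alcohol-fed replicate 6 at -2.07, with the next array at 0.20. Kcnma1 by the probe NM_010610, also called in the pair-fed group alone, had alcohol-fed replicate 7 at 1.81, above the next at 0.64.

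Alcohol-fed replicate 6 was also the lowest array for Kcnv1 (-2.11, next 0.20), for Kcnip3 (-1.46, next 0.60) and for the median of the accessory class (-1.61, next -0.44). It held 1708 placeholder values, the most of any alcohol-fed array. The other flagged values were Kcnh2 at -1.24 on alcohol-fed replicate 1 (next -0.04), Kcnk4 by the probe NM_008431 at -3.21 on alcohol-fed replicate 3 (next -0.81), Kcnq1 by the probe AJ002199 at 0.83 on alcohol-fed replicate 3 (next -0.05), and Kcne1 at -6.44 on pair-fed replicate 7 (next -1.97).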

How the results depend on the processing

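Of 39 calls against the reference, 27 held under every alternative that tested the probe, of 26 alternatives tried. The restriction to values on all arrays tested just 48 of the 68 members. Gene averages were compared by counts of genes and gave no test of a single probe. Over 5007 combinations of a member's test and an alternative, 61 lost a call, 29 gained one and 0 reversed a called sign. No member was called between the groups under any of them. The cause of the changes below was not tested, except that restricting the fit to probes with values on all arrays tests fewer probes.

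That restriction left 9 members lower in the alcohol-fed group (from 18) and 6 in the pair-fed group (from 13), and called 3 voltage-gated and 3 inward rectifier probes in the alcohol-fed group (from 8 and 6) and 2 voltage-gated and 1 two-pore probe in the pair-fed group (from 7 and 2). Quantile normalization called 7 members higher in the alcohol-fed group and 4 calcium-activated probes, where values as deposited and array weights called 2 and the main setting 1; array weights called 5 accessory probes. Without the 2 arrays with most placeholders, 3 members were higher in the pair-fed group and 1 calcium-activated probe was called. Without alcohol-fed replicates 2 and 3 and pair-fed replicate 2, an alternative chosen after the data were seen, these were again 3 and 1, with 5 voltage-gated probes called in the alcohol-fed group and 1 two-pore probe in the pair-fed group. Keeping placeholders also left 1 two-pore probe there. The inward rectifier median in the alcohol-fed group, -0.88, was -0.67 with values as deposited, -1.12 without those 3 arrays and -1.13 with the replicate block.

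Leaving out each array in turn gave 2 to 6 members higher and 16 to 19 lower in the alcohol-fed group, and 3 to 5 and 10 to 14 in the pair-fed group. Class counts ran from 5 to 8 (voltage-gated, alcohol-fed), 1 to 3 (calcium-activated, alcohol-fed), 1 to 2 (calcium-activated, pair-fed) and 1 to 3 (two-pore, pair-fed), and the inward rectifier median from -1.14 to -0.75.

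Replicate numbers 1 to 7 are shared by the groups, but same-numbered arrays correlated above 0.1 in 1 of 7 pairs and 2 alcohol-fed arrays correlated best with their own number, so the pairing is by number alone. With the replicate block, 2 members were higher and 17 lower in the alcohol-fed group, and 5 and 13 in the pair-fed group. It ended the pair-fed call of Kcnj6 by the probe NM_010606 (limma adjusted p = 0.0513) and called Kcnj6 by the probe U51126 lower in both groups, at -1.59 (0.0169) and -1.25 (0.0245).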
